A study of Mus musculus with 4 samples.

Results

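The 10 genes described here, whose products sit on the surface or at the junctions of the endothelial cells that line vessels, were followed across 4 arrays. They are the receptors Kdr, Flt1, Tek, Tie1 and Eng, the junction proteins Cdh5 and Pecam1, and the vessel-surface and membrane proteins Emcn, Plvap and Ehd3. They were taken by the gene name that the files give for each probe, and make up 10 of 21113 genes and 18 of 41142 probes. The arrays came from kidneys of Nlrc5-/- (KO) mice after ischemia and reperfusion (KO injured), wild type C57BL/6 mice after the same injury (WT injured), sham-operated KO mice (KO sham) and sham-operated wild type mice (WT sham). All mice were 8 weeks old, the strain background is given as C57BL/6 for every array, and each group held 1 array. Both kidneys had been made ischemic for 30 min. Reperfusion lasted 48 h by the array titles and the study design, and the array descriptions give 24 h. How the Nlrc5 allele was made, and whether animals were pooled, are not given in the sources used here.

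The arrays were one-colour Agilent arrays, read as fluorescence of labelled RNA on each spot. The level of a gene is given here as log2 of its processed signal minus the log2 75th percentile of that array, for the brightest of its probes, so a difference of 1 between arrays is 2-fold. A level describes 1 probe across arrays and cannot be set against that of another gene. The 75th percentile of the signal over probes was 352.6 on the KO injured, 176.6 on the WT injured, 452.7 on the KO sham and 445.9 on the WT sham array, so the WT injured array was the dimmest. The share of probes well above background ran from 67.3% to 74.6%. Both KO arrays lay on 1 slide and both WT arrays on another, with 1 scan per slide, so genotype and slide cannot be told apart, while each comparison of injured with sham lies within 1 slide. The KO sham array carried Xist and no signal above background from 4 Y-linked genes, and the other 3 arrays showed the opposite. With 1 array per group there is no replicate spread between animals, and the 2-array differences carry no p-value. The probe for Nlrc5 did not separate the genotypes: its level was -3.58 on the KO injured, -3.30 on the WT injured, -3.73 on the KO sham and -4.05 on the WT sham array. The deleted stretch of the gene is not given, so a probe outside it checks nothing.

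Endothelial cells line the vessels, and these genes cover the main ways in which they sense and hold each other. Vascular endothelial growth factor (VEGF), made in the kidney largely by podocytes and tubular cells, acts through Kdr, its main signalling receptor, while Flt1 binds VEGF tightly and limits what reaches Kdr. Angiopoietins act through Tek (also called Tie2), with Tie1 as its partner, and help to keep vessels stable. Eng is a coreceptor for BMP and TGF-beta ligands, Cdh5 is the VE-cadherin of adherens junctions, and Pecam1 is an adhesion molecule that platelets and leukocytes carry too. In the kidney, Plvap forms the diaphragms of fenestrated peritubular capillaries, Emcn is a sialomucin of capillaries and veins, and Ehd3 is known for the endothelium of the glomerulus.

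Of the 18 probes, the 8 on which the results turn are shown. They are, among the brightest probes, those with the widest differences between the injured arrays (Kdr, Plvap and Ehd3) and the narrowest (Pecam1). The probe pairs of Tek and Cdh5, which did not move alike, complete them. Each is a 60-base probe, written 5′ to 3′ in lower case with no part marked. The Pecam1 interval is longer than the probe itself. Gene models of mm9 were not used here, so exon and UTR positions are not stated.
Kdr probe A_51_P316553 (mm9 chr5:76329309-76329368, minus strand): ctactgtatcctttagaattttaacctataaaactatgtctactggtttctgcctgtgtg
Plvap probe A_51_P414653 (mm9 chr8:74021877-74021936, minus strand): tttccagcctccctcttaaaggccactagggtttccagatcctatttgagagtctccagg
Ehd3 probe A_51_P360918 (mm9 chr17:74181371-74181428, plus strand): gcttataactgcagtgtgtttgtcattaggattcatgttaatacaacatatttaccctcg
Pecam1 probe A_51_P400868 (mm9 chr11:106542389-106544242, minus strand): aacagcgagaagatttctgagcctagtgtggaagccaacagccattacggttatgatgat
Tek probe A_52_P234087 (mm9 chr4:94408487-94408546, plus strand): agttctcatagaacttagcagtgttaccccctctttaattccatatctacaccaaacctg
Tek probe A_51_P130374 (mm9 chr4:94540861-94540919, plus strand): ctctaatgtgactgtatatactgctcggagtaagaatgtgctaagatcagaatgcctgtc
Cdh5 probe A_52_P248604 (mm9 chr8:106668159-106668218, plus strand): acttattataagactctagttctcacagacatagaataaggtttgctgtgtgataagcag
Cdh5 probe A_51_P309056 (mm9 chr8:106667499-106667558, plus strand): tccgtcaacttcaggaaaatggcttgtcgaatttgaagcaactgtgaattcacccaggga

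Among injured kidneys, all 10 genes were higher on the KO than on the WT array, by a median of 1.78 on the log2 scale, where 52.8% of the genes tested were higher by any amount. In 9 of the 10, all but Pecam1, the difference was at least 2-fold, and 11.2% of the 16730 genes above background on either array were higher by that much. The median over all those genes was 0.04. Between injured and sham kidneys of wild type mice, all 10 genes were lower after injury, 8 of them at least 2-fold, with a median of -1.58. In that comparison 14.9% of 16660 genes were lower by at least 2-fold and 50.3% by any amount, and the median of all genes was -0.01. The WT sham array also carried far more adipocyte RNA than the WT injured array. The 4 adipocyte markers summed to 0.174 on the WT injured and 26.5 on the WT sham array, in multiples of the 75th percentile. In KO mice, 9 of the 10 were lower after injury and Tek was higher by 0.05, but no gene differed 2-fold by its brightest probe. Of the 14 probes above background on all arrays, 2 were at least 2-fold lower there, the second probes of Tek and Cdh5. The median of the 10 genes was -0.42. Of 17029 genes, 48.6% were lower by any amount and 4.22% by 2-fold or more. This pair also differs in sex-chromosome genes and in 3 erythroid genes, which summed to 1.40 on the KO injured and 57.5 on the KO sham array. The part of these markers in either response was not tested. These comparisons share arrays, so they are not separate pieces of evidence: the WT injured array enters both of the wide ones. RNA came from whole kidney, where fewer endothelial cells and less RNA per cell cannot be told apart.

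**Figure D1:**
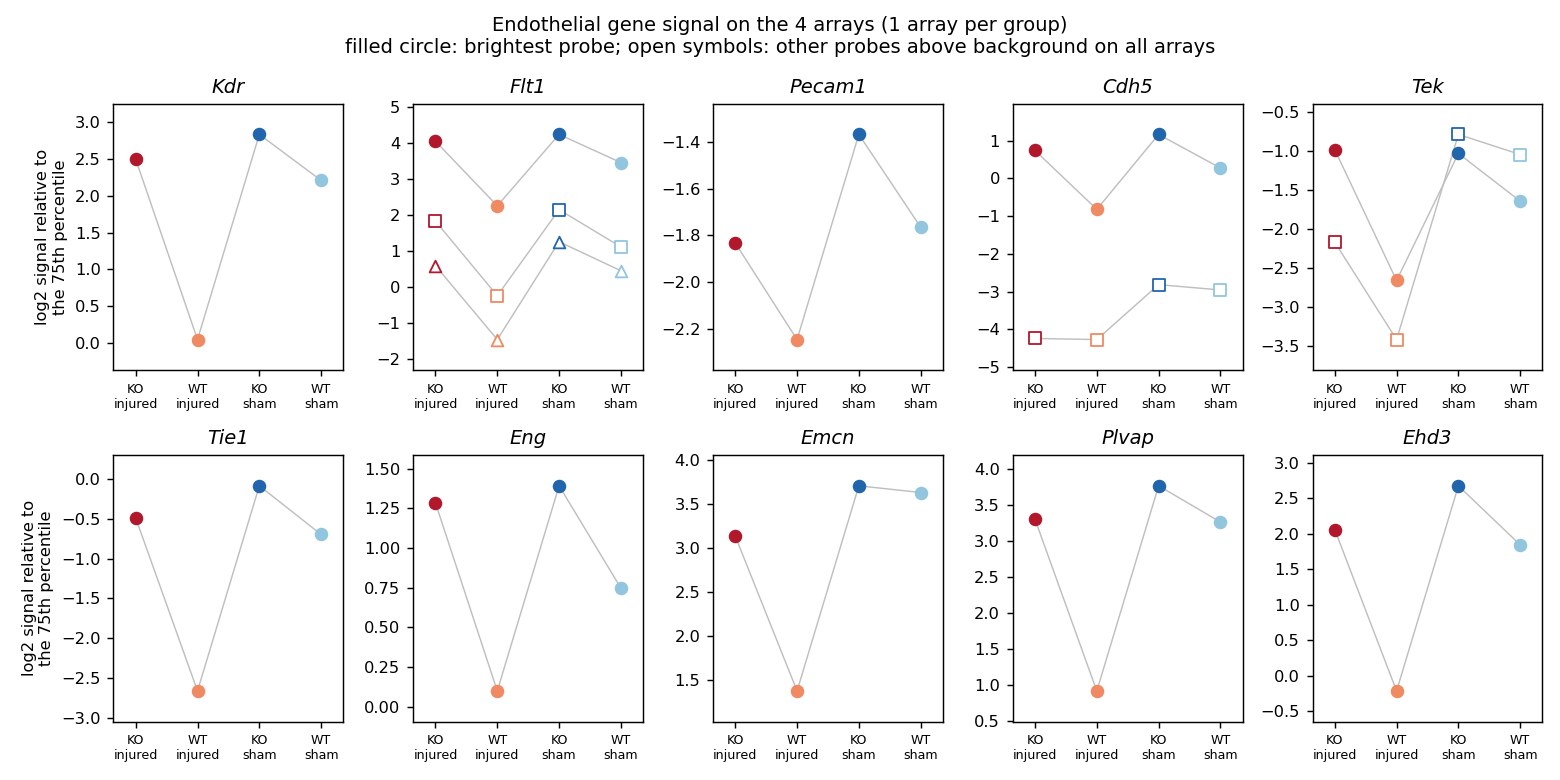
Level of each of the 10 genes on the 4 arrays (1 array per group), as log2 signal relative to the 75th percentile of the array on the vertical axis, which differs between panels. Filled circles are the brightest probe and open symbols the other probes above background on all arrays. The WT injured array is lowest in every panel for the filled circles.

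Kdr, the main receptor for VEGF, had a level of 2.50 on the KO injured array, against 0.05 on the WT injured array, 2.83 on the KO sham array and 2.21 on the WT sham array. The WT injured array thus stood apart below the other 3, which lay close together. Kdr was 5.47-fold higher in KO than in WT injured kidney and 4.48-fold lower in WT injured than in WT sham kidney. In KO kidneys the difference between injured and sham was -0.34. Its probe was spotted 10 times on each array, with an SD over spots of 0.055 on the KO injured, 0.084 on the WT injured, 0.047 on the KO sham and 0.054 on the WT sham array. No spot of the WT injured array reached the range of another array. This spread covers spotting and reading within an array and says nothing of the spread between animals. A further Kdr probe was below background on all arrays.

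Flt1, the receptor that binds and holds VEGF, was at 4.05 on the KO injured array, 2.26 on the WT injured array, 4.24 on the KO sham array and 3.46 on the WT sham array. Again the WT injured array was lowest and both KO arrays were close together. The KO injured level was 3.46-fold that of WT injured, and the WT injured level was 2.30-fold below WT sham. Flt1 had 3 probes above background on all arrays. They gave 1.79, 2.05 and 2.07 for KO injured minus WT injured, and -1.20, -1.91 and -1.36 for WT injured minus WT sham. All 3 therefore put the same array lowest, with a range of 0.28 among them in the first comparison and 0.71 in the second. Of the remaining Flt1 probes, 1 was not well above background on the WT injured array and 1 was below background on all arrays.

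**Figure D2:**
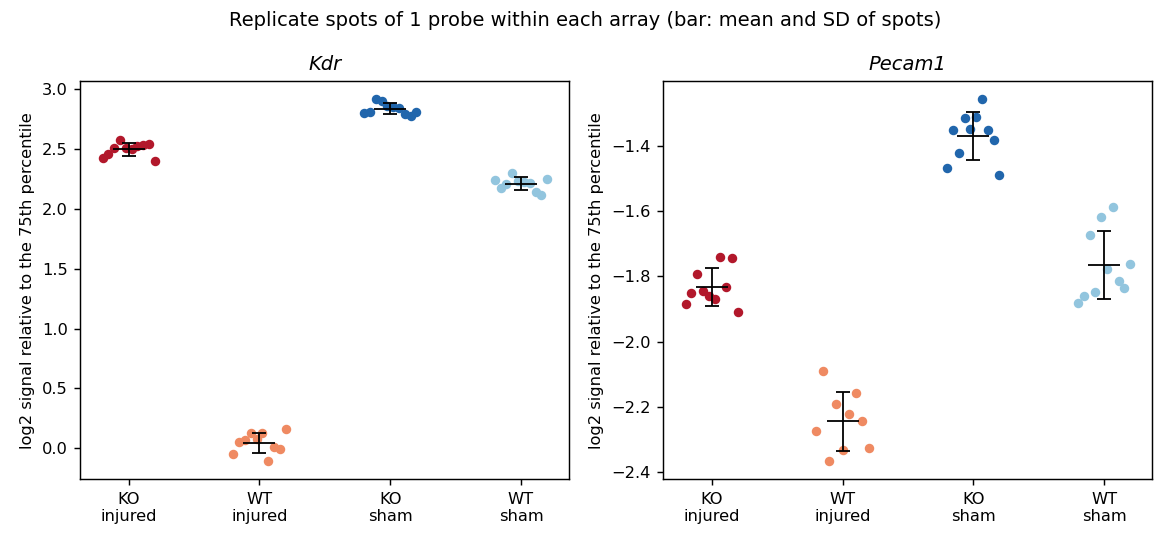
Each point is 1 spot of the brightest probe of Kdr (left) or Pecam1 (right), as log2 signal relative to the 75th percentile on the vertical axis, with the mean and SD over spots as bars. The spots of the WT injured array lie near 0.05 for Kdr, below all spots of the other arrays, while for Pecam1 the array means run from -2.24 to -1.37.

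Tek, the angiopoietin receptor, had a level of -0.98 on the KO injured array and -2.66 on the WT injured array, with -1.03 on the KO sham array and -1.64 on the WT sham array. By this probe it was 3.20-fold higher in KO than in WT injured kidney and 2.02-fold lower in WT injured than in WT sham kidney. Its second probe had levels of -2.17 on the KO injured, -3.42 on the WT injured, -0.79 on the KO sham and -1.04 on the WT sham array. On both sham arrays that second probe was the brighter one. It gave -2.37 for WT injured minus WT sham and 1.25 for KO injured minus WT injured. The 2 probes are annotated to different transcripts. Both Tek probes thus put the WT injured array lowest, but they disagree on the KO response: KO injured minus KO sham was 0.05 by the first and -1.38 by the second. Their intervals lie further apart on chromosome 4 than the Cdh5 intervals on chromosome 8.

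Tie1, the partner of Tek, was at -0.49 on the KO injured array, -2.66 on the WT injured array, -0.09 on the KO sham array and -0.70 on the WT sham array. It was 4.50-fold higher in KO than in WT injured kidney and 3.90-fold lower in WT injured than in WT sham kidney. KO injured minus KO sham was -0.40. Eng, the BMP coreceptor, was at 1.28 on the KO injured array, 0.10 on the WT injured array, 1.39 on the KO sham array and 0.75 on the WT sham array. Its differences were narrower than those of Tie1, at 2.27-fold higher in KO than in WT injured kidney and 1.57-fold lower in WT injured than in WT sham kidney. For KO injured minus KO sham, Eng stood at -0.11, which is smaller than the technical SD of 0.126 for a probe with 1 spot in that comparison.

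Cdh5, the cadherin that joins endothelial cells, was at 0.74 on the KO injured array, -0.82 on the WT injured array, 1.17 on the KO sham array and 0.28 on the WT sham array. By this probe it was 2.95-fold higher in KO than in WT injured kidney and 2.14-fold lower in WT injured than in WT sham kidney. The second Cdh5 probe was dimmer, at -4.24 on the KO injured, -4.27 on the WT injured, -2.82 on the KO sham and -2.96 on the WT sham array. Its signal was 18.6 on the KO injured and 9.12 on the WT injured array. The lowest signals called well above background there were 9.11 and 6.80. The part of that limit in the values of this probe was not tested. By that probe both injured arrays were low and alike: KO injured minus WT injured was 0.03, WT injured minus WT sham was -1.32 and KO injured minus KO sham was -1.43. The first probe gave -1.10 for WT injured minus WT sham and -0.43 for KO injured minus KO sham. The wider gap between the probes thus lay in KO kidneys. The 2 probes therefore disagree on whether the injured KO kidney differed from the injured WT kidney, and which one follows the transcript was not tested.

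Pecam1 was the narrowest of the 10 in both comparisons with the WT injured array, by the brightest probes. Its level was -1.83 on the KO injured array and -2.24 on the WT injured array, against -1.37 on the KO sham array and -1.77 on the WT sham array. The difference between injured and sham was -0.46 in KO and -0.48 in WT kidneys, so the 2 responses were 0.02 apart. KO injured minus WT injured was 0.41 and KO sham minus WT sham was 0.40. A second Pecam1 probe was below background on all arrays. Normexp is another background correction. It models the intensities left after subtracting local background over the whole array, here with an offset of 50 added. With normexp, WT injured minus WT sham turned positive for Pecam1, at 0.12 to 0.13, and KO injured minus WT injured lay between -0.10 and 0.56.

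Plvap, the diaphragm protein of fenestrated capillaries, was at 3.30 on the KO injured array, 0.92 on the WT injured array, 3.77 on the KO sham array and 3.26 on the WT sham array. By the brightest probes it had the widest difference of the 10 within wild type mice, 5.07-fold lower in WT injured than in WT sham kidney. It was 5.21-fold higher in KO than in WT injured kidney. Emcn, the capillary sialomucin, was at 3.14 on the KO injured array, 1.38 on the WT injured array, 3.71 on the KO sham array and 3.63 on the WT sham array. It was 3.38-fold higher in KO than in WT injured kidney and 4.77-fold lower in WT injured than in WT sham kidney. Emcn was also the gene whose sham arrays were closest, with KO sham minus WT sham at 0.08, below the technical SD of 0.158 for a 1-spot probe.

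Ehd3, which marks glomerular endothelium in the mouse, was at 2.06 on the KO injured array, -0.21 on the WT injured array, 2.67 on the KO sham array and 1.84 on the WT sham array. It was 4.83-fold higher in KO than in WT injured kidney and 4.16-fold lower in WT injured than in WT sham kidney. By the brightest probes, Ehd3 also had the widest difference among KO kidneys, with KO injured minus KO sham at -0.62. Plvap, of peritubular capillaries, and Ehd3, of the glomerulus, thus passed 2-fold in the same comparisons.

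**Figure D3:**
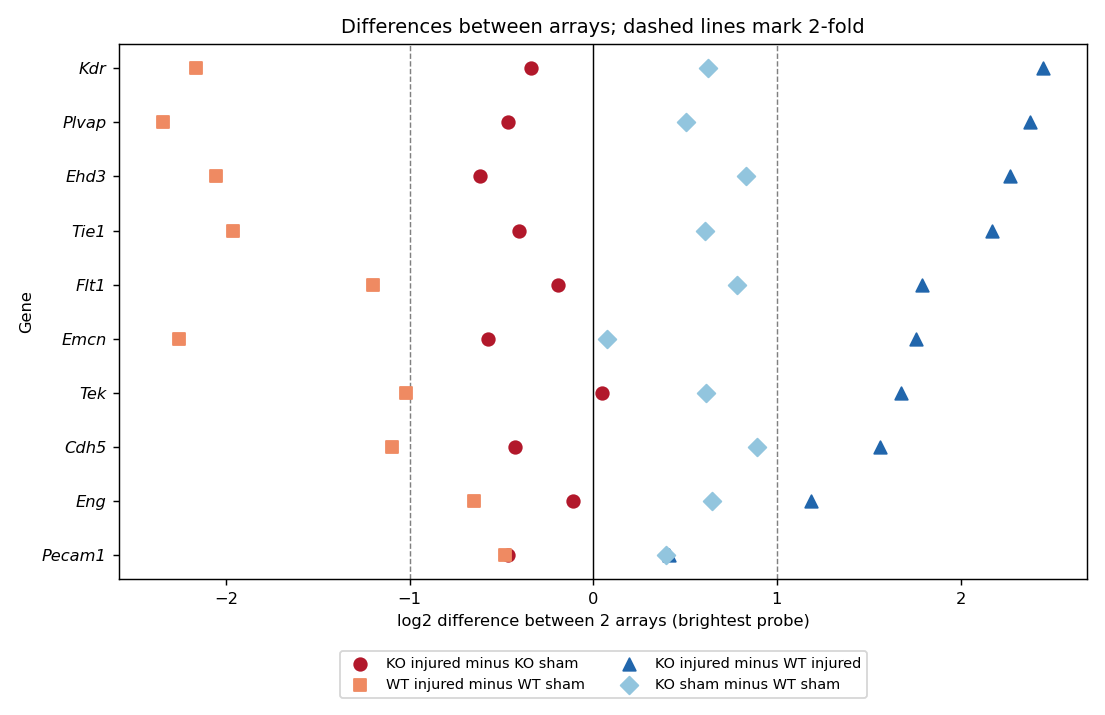
log2 differences between pairs of arrays (horizontal axis) for the 10 genes (vertical axis), for the brightest probe, 1 array per group, with dashed lines at 2-fold. Differences of KO injured minus WT injured reach 2.45 for Kdr, those of WT injured minus WT sham reach -2.34 for Plvap, and those of KO injured minus KO sham and KO sham minus WT sham stay within 2-fold.

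Between the sham arrays all 10 genes were higher in KO than in WT kidney, by a median of 0.62 and by at most 0.89, for Cdh5. No gene differed 2-fold, and 5.55% of 16980 genes were higher by that much. Any higher value, of whatever size, was found in 54.6% of genes, with a median of 0.05 over all of them. This pair of arrays differs in sex-chromosome genes, slide and non-renal markers as well as genotype. The summed level of 3 measured erythroid genes was 57.5 on the KO sham array and 6.69 on the WT sham array, in multiples of the 75th percentile, and that of 4 adipocyte genes was 0.231 on the KO sham array and 26.5 on the WT sham array. The part of these in the endothelial values was not tested.

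The injury responses, KO injured minus KO sham less WT injured minus WT sham, differed by a median of 1.25 over the 10 genes. By the brightest probes the higher value was in KO for each, while the second Cdh5 probe gave -0.11. Of the 10, 7 differed by at least 2-fold (Kdr, Flt1, Tek, Tie1, Emcn, Plvap and Ehd3), against 9.64% of the 14948 genes above background on all arrays. The widest was Plvap at 1.88, and the narrowest was Pecam1 at 0.02, so the 2 responses of Pecam1 were nearly equal. This difference uses all 4 arrays once and leaves no residual degree of freedom, so it has no test. With the WT sham array in place of the KO sham array, KO injured minus WT sham had a median of 0.25, with 8 genes higher, 2 lower (Pecam1 and Emcn) and none 2-fold apart. At that threshold 10.2% of 16854 genes were higher and 9.24% lower. By the brightest probes, the injured KO array thus lay within 2-fold of both sham arrays for each of the 10 genes. The second probes of Tek and Cdh5 were over 2-fold below both, and with normexp on all spots 3 genes passed 2-fold in KO injured minus KO sham, where 32.7% of all genes did so in either direction.

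**Figure D4:**
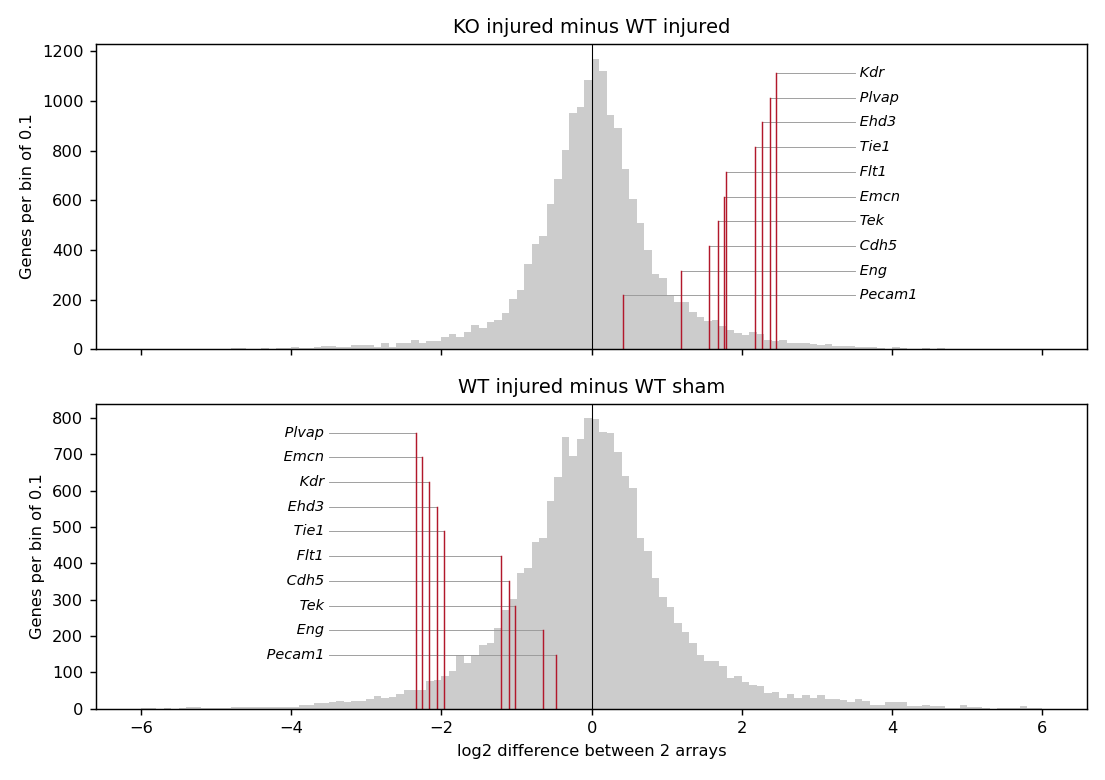
Grey bars count genes by log2 difference (horizontal axis, bins of 0.1) for KO injured minus WT injured (top) and WT injured minus WT sham (bottom), and red lines mark the 10 endothelial genes. In the top panel 98.3% of genes lie below Kdr and 72.5% below Pecam1. In the bottom panel 2.91% lie below Plvap.

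A limma fit with genotype and treatment as additive terms, which has 1 residual degree of freedom, called none of the 10 genes. For injury their log2 changes over both genotypes ran from -1.41 (SE 0.52) for Emcn to -0.38 (SE 0.29) for Eng, with limma adjusted p-values between 0.430 and 0.562. The fit called 0 of 16554 genes for injury, with 857 higher and 1016 lower at an unadjusted p under 0.05 (5.18% and 6.14%), and none of the 10 genes reached that level. For genotype the 10 genes ran from 0.40 (SE 0.26) for Pecam1 to 1.55 (SE 0.46) for Ehd3, with limma adjusted p-values between 0.769 and 0.773. The fit called 0 genes for genotype, with 566 higher and 347 lower at an unadjusted p under 0.05 (3.42% and 2.10%). Flt1, Cdh5, Tek, Eng and Ehd3 were among those higher, at an unadjusted limma p of 0.022 for Cdh5, the lowest of the 10. In this fit a difference in response between the genotypes counts as error.

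The VEGF and angiopoietin ligands were measured with their receptors. Vegfa, the main ligand of Kdr and Flt1, was at 3.16 on the KO injured array, 1.98 on the WT injured array, 3.67 on the KO sham array and 3.46 on the WT sham array, so its lowest array was also WT injured. Angpt2, an angiopoietin made by endothelial cells that can oppose Angpt1 at Tek, was at -0.50 on the KO injured, -2.65 on the WT injured, 1.79 on the KO sham and 0.74 on the WT sham array. It was lower after injury in both genotypes, at -2.29 in KO and -3.39 in WT kidneys. Angpt1, the activating ligand of Tek, was 1.38 higher in KO than in WT injured kidney and differed by -0.09 between WT injured and WT sham. Its probe was dim on the WT injured array, at a signal of 13.4, where the lowest called well above background was 6.80. With normexp on all spots, WT injured minus WT sham was 0.76 for Angpt1. Of the 7 ligands, 4 were at least 2-fold higher in KO than in WT injured kidney (Vegfa, Vegfd, Angpt1 and Angpt2), and 3 were at least 2-fold lower in WT injured than in WT sham kidney (Vegfa, Vegfd and Angpt2). Vegfb, Vegfc and Pgf differed by 0.04, -0.06 and 0.15 between the injured arrays.

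Among 10 coreceptors and further receptors, 9 were above background on an injured array, and 4 of these, above background on both, were at least 2-fold higher in KO than in WT injured kidney. They are Ptprb, the phosphatase that acts on Tek and Cdh5, at 1.63, Robo4 at 1.62, Calcrl at 1.14 and Nrp2, a coreceptor for VEGF family ligands, at 1.0. Acvrl1, the receptor that works with Eng, was not well above background on the WT injured array, so its difference is only a bound, at least 1.11-fold higher in KO, and it turned to -0.55 under 1 normexp setting. Nrp1, the coreceptor of Kdr, had 0.25 in that comparison, and its difference between injured and sham was -0.72 in KO and -0.87 in WT kidneys. Taken at measured values, the median of the 9 genes was 1.0 for KO injured minus WT injured and -0.95 for WT injured minus WT sham.

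The 12 junction partners went different ways. The catenins that bind the tail of Cdh5 are made by many kidney cells. In KO minus WT injured kidney, Ctnnb1 (beta-catenin) had -0.49, Ctnna1 (alpha-catenin) -0.84, Ctnnd1 (p120-catenin) -0.62 and Jup (plakoglobin) -1.02. Cldn5, an endothelial tight junction claudin, was higher by 0.91, and Jam3, a junctional adhesion molecule, by 2.17. In WT injured minus WT sham, Cldn5 had -1.24 and Jam3 -2.79, and both Cdh5 probes were lower there too. Of the 12, 1 was at least 2-fold higher (Jam3) and 2 at least 2-fold lower (Jup and Cdh2, at -1.37) in KO than in WT injured kidney, with a median of -0.42. Under 2 normexp settings Jup turned to 0.23 and 0.13 and Cdh2 to 0.36 and 0.25, so neither lower value held there. Of all genes tested, 8.12% were lower by that much. That median for the 10 endothelial genes was 1.78.

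Of 21 other genes known from endothelium in general, 19 were higher in KO than in WT injured kidney, 9 at least 2-fold, and 1 was at least 2-fold lower. The highest were the transcription factor Fli1 at 2.06, the surface sialomucin Cd34 at 1.94 and the transcription factor Sox18 at 1.72. The lowest was Procr, the protein C receptor, at -1.10. The list's median was 0.79 in that comparison, -0.75 for WT injured minus WT sham and -0.49 for KO injured minus KO sham. Between the sham arrays all 21 were higher in KO, with a median of 0.59.

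Genes of BMP signalling, in which Eng is a coreceptor, also went different ways. In WT injured minus WT sham, 6 of 11 were higher and 5 lower, with a median of 0.12. Id1, Id3, Smad1 and Smad9 were higher there, by 2.17, 1.62, 1.78 and 1.44. Between the injured arrays Id1 had -1.41, Id3 -2.31, Smad1 -0.85 and Smad9 -1.23, the last turning to 0.64 and 0.52 under 2 normexp settings. The inhibitory Smad6 had -0.57 in WT injured minus WT sham, and -0.08 and -0.09 under 2 normexp settings. Between the injured arrays Smad6 had 0.11, Id2 -0.31 and Smad7 -0.29. These genes are also made by other kidney cells. Over the 10 BMP and endoglin genes above background on an injured array, the median was -0.38 for KO injured minus WT injured.

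Lists of genes known from separate kidney vessels gave smaller medians. Over 8 glomerular and arterial genes the median was 0.36 for KO injured minus WT injured, with Sema3g at 1.21 and Plat at -1.29. Over 8 peritubular and venous genes it was 0.54, with Igfbp5 at 2.75, Igfbp3 at 1.59 and Esm1, a VEGF-responsive gene, at 1.57. Igfbp5 was at 4.45 on the KO injured array, 1.71 on the WT injured array, 4.21 on the KO sham array and 4.26 on the WT sham array. Like Kdr, it was low on the WT injured array alone.

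Markers of proximal tubule and podocytes moved with the endothelial genes. The summed level of the 10 genes was 50.7 on the KO injured, 13.3 on the WT injured, 65.8 on the KO sham and 45.3 on the WT sham array, in multiples of the 75th percentile. That of 5 proximal tubule genes was 394.2 on the KO injured, 96.6 on the WT injured, 426.2 on the KO sham and 504.5 on the WT sham array. All 5 were at least 2-fold lower in WT injured than in WT sham kidney. The 5 podocyte genes summed to 3.60 on the KO injured, 1.90 on the WT injured, 5.43 on the KO sham and 3.99 on the WT sham array, with 4 of the 5 at least 2-fold lower in WT injured than in WT sham kidney. Low values on the WT injured array were thus also found for proximal tubule and podocyte genes. The 3 thick limb and collecting duct genes summed to 241.3 on the KO injured, 183.2 on the WT injured, 295.7 on the KO sham and 315.0 on the WT sham array. They did not move alike: KO injured minus WT injured was 1.95 for Slc12a1, 0.35 for Umod and -0.28 for Aqp2. The proximal tubule genes were well above background on every array.

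The pericyte and smooth muscle markers did not move as one. Their 8 genes summed to 35.2 on the KO injured and 57.8 on the WT injured array, against 37.0 on the KO sham and 38.3 on the WT sham array. The bright smooth muscle probes of Tagln and Acta2 make up most of these sums, at -1.25 and -0.54 for KO injured minus WT injured. In that comparison 2 of the 8 genes were higher and 6 lower, with a median of -0.26. The 2 higher were the pericyte genes Pdgfrb and Cspg4, at 0.88 and 0.76, while the pericyte gene Rgs5 had -0.31. In WT injured minus WT sham, Pdgfrb, Cspg4 and Rgs5 had 0.01, -0.19 and -0.84. The 6 leukocyte genes summed to 11.7 on the KO injured, 8.15 on the WT injured, 13.6 on the KO sham and 9.82 on the WT sham array, mostly from the bright Lyz2 probe. Members of that list ran in opposite directions: for KO injured minus WT injured the macrophage genes Cd68 and Csf1r had -1.24 and 1.57, and for WT injured minus WT sham 2.81 and -1.16. The 5 platelet genes summed to 0.770 on the KO injured, 1.09 on the WT injured, 0.777 on the KO sham and 0.667 on the WT sham array, with Gp1ba below background on all of them. Pecam1 is made by both of these blood cell types. The 4 lymphatic genes summed to 0.529 or less on every array. The part of these other cell types in the endothelial values was not tested.

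The size of the difference depended on the processing for some of the 10 genes. Under 7 other ways of computing the same values, KO injured minus WT injured ran from 0.87 to 2.49 for Kdr, from 0.80 to 1.58 for Cdh5, from 0.72 to 1.69 for Tek, from 1.13 to 2.20 for Tie1 and from 2.0 to 2.53 for Plvap. The low ends for Kdr and Cdh5 came from averaging all probes of a gene, which takes in the Kdr probe below background. Those for Tek and Tie1 came with normexp. With normexp the WT injured array was also less than 2-fold below WT sham for Cdh5 at -0.54, for Tek at -0.19 to -0.20 and for Tie1 at -0.91 to -0.90. Emcn, by contrast, stayed between -2.35 and -2.20 in WT injured minus WT sham. In each of the 7 the WT injured array was the lowest of the 4 for all of these genes but Pecam1. Scaling to the median of each array in place of the 75th percentile shifted KO sham minus WT sham by -0.16 and WT injured minus WT sham by -0.10 for every gene, and left the median of the 10 at 0.46.

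**Figure D5:**
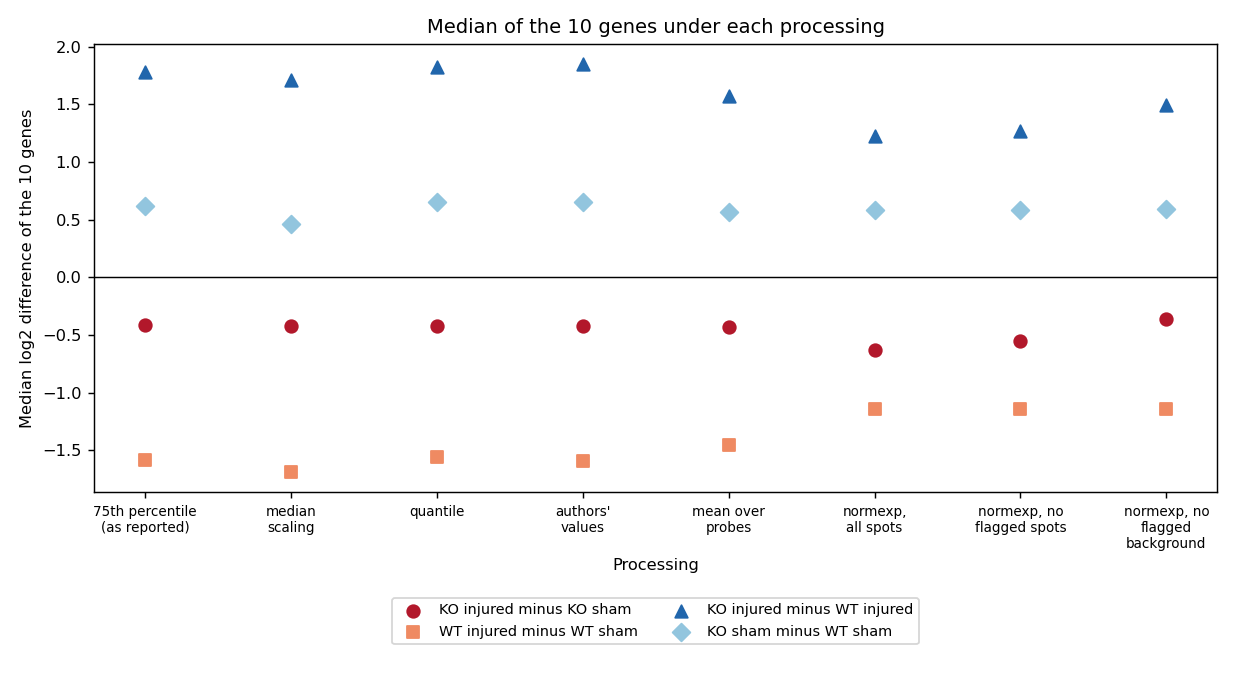
Median log2 difference of the 10 genes (vertical axis) under each way of processing the arrays (horizontal axis), with 1 symbol per comparison. The median of KO injured minus WT injured runs from 1.22 to 1.85, and that of WT injured minus WT sham from -1.68 to -1.14.

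Genes that differ together can be set side by side by the letters of their promoters. The 250 bases before the start of 2 of them are printed, from RefSeq with build GRCm38.p6. Kdr had the widest difference between the injured arrays, and Tie1 had the most copies of GGAA. That motif (TTCC on the other strand) is the core bound by ETS factors such as Fli1 and Erg, and it is marked in capitals.
Kdr (GRCm38.p6 chr5:75978456-75978705, minus strand): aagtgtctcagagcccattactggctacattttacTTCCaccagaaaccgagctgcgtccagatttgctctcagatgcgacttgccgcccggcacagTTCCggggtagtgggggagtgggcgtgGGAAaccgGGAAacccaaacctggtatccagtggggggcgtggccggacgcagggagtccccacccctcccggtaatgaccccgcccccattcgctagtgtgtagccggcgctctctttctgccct
Tie1 (GRCm38.p6 chr4:118489850-118490099, minus strand): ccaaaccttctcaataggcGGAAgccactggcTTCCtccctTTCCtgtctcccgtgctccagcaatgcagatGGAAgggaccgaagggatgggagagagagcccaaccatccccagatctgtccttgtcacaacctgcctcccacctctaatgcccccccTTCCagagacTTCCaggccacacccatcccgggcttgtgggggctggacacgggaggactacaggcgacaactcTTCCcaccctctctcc

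Promoters of 300 bases, with 50 bases after the start, were held for Kdr, Flt1, Tek, Tie1, Eng, Emcn and Ehd3. GGAA on either strand was found in 7 of these 7, with 5 copies for Kdr, 4 for Flt1, 2 for Tek, 9 for Tie1, 4 for Eng, 6 for Emcn and 4 for Ehd3. It was also found in 95.9% of all 27025 promoters of that kind, so its presence does not set these genes apart. The median was 4 copies over the 7 and 3 over all promoters. GGAAG, which contains GGAA, was in 6 of 7 against 71.1% of all promoters, and CCGGAA, which also contains it, in 1 of 7 against 15.2%. TATAAA was in 1 of 7 against 14.2% and GATAA in 2 of 7 against 25.8%, each counted on both strands. These matches are descriptions of the letters and not binding sites.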

How the data were processed

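Total RNA from kidney was labelled with Cy3 and hybridised to 4 one-colour Agilent arrays, 1 per group, grouped by the labels. The deposited scanner files hold spot intensity, subtracted for background and detrended within each array, with probe coordinates of mm9. Per the file headers the scans were read with Feature Extraction 10.7.3.1. The submitters' processing notes name version 9.1. A deposited table of log2 values by the authors, whose scaling between arrays is not given in the sources used here, served as an alternative. Its rank correlation with the scanner intensity was at least 0.99998 on each array.

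Control spots and spots with outlier flags were left out, spots of a probe were averaged, and log2 intensity was set against the 75th percentile of each array. RefSeq tables gave the gene names, and the probe brightest on average over the arrays stood for a gene. Differences of 2-fold between 2 arrays were counted among genes measurable on at least 1 of them, at the measured value also where the other array was dim. limma 3.58.1 (R 4.3.3) fitted genotype and treatment, with Benjamini-Hochberg adjustment over 16554 genes above background on at least 2 arrays. The fit was also run on simulated data in which all genes shared 1 spread and both genotypes responded alike. That run does not show how the fit does where the responses differ. The alternatives were background correction, scaling, the authors' values, averaging of probes, filters and thresholds.

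Genes named beside the 10 were those of each list with the largest differences each way in 2 comparisons, up to 3, and direct partners of the 10, of which a selection is given. Nlrc5 is always given. Smad6, Smad7, Id2 and the single markers of other cell types were chosen after their values were seen. The 10 genes and the lists were chosen with earlier results of these data known. The number of arrays limits the precision.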

Additional observations from a re-analysis of the deposited data

Results flagged for a closer look

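Tek was the one gene of the 10 whose injury response had opposite signs in the 2 genotypes by its brightest probe. KO injured minus KO sham was 0.048, and WT injured minus WT sham was -1.02. With 1 array per group the difference was not tested. The KO value is smaller than the technical SD of 0.126 for a probe with 1 spot, and the second Tek probe gave -1.38 in KO kidneys, with the same sign as in WT kidneys.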

How the results depend on the processing

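No paired analysis was possible because each group held 1 array. Over 7 other settings of background correction, scaling, values and probe averaging, 280 differences of the 10 genes were recomputed: 201 moved by little, 79 moved by more than the technical spread, and 8 changed sign (6 of Pecam1, and 1 each of Tek, at -0.67 in KO injured minus KO sham with probes averaged, and Emcn, at -0.08 in KO sham minus WT sham with median scaling). Filters on dim probes left these differences as they were. The first 2 normexp settings used all spots or left out flagged spots. The last, chosen after seeing the data, left out spots with a flagged local background, since 1 spot of the KO injured array had a mean signal minus local background of -11068.7. In that order the 3 normexp settings gave the following values. WT injured minus WT sham had 5, 5 and 5 genes past 2-fold (21.2%, 21.3% and 21.2% of all genes in either direction) and medians of -1.14, -1.14 and -1.14. KO injured minus KO sham had 3 and 1 genes past 2-fold and medians of -0.63 and -0.55 under the first 2, where 32.7% and 29.8% of all genes passed, so these counts are near or below the share over all genes. KO injured minus WT injured had medians of 1.22, 1.27 and 1.49, and the response difference 0.66, 0.71 and 0.93. Averaging all probes gave medians of 1.57 for KO injured minus WT injured and 0.98 for the response difference. At 4-fold, 4 genes passed in WT injured minus WT sham and 4 in KO injured minus WT injured (9.28% and 5.42% of all genes). At 1.5-fold, 1 passed in KO injured minus KO sham and 7 in KO sham minus WT sham (23.8% and 25.1% of all genes). Set against the WT sham array, also chosen after seeing the data, the KO injured array had a median of 0.25. With the 3 normexp settings limma called 4425, 4423 and 1187 of 16554, 16554 and 15619 genes for injury (5, 5 and 4 of the 10). For genotype it called 101, 120 and 230 of the same genes (0, 0 and 4 of the 10). Other settings called 0 for either. Under normexp the fit took all or nearly all of its variance from a value shared over genes. Its prior degrees of freedom were infinite, infinite and 433.5, against 2.52 in the main fit. These calls therefore do not reflect a spread between animals. Among other genes, normexp turned Acvrl1 to 0.58, 0.58 and 0.58 in WT injured minus WT sham, to 1.36 and 1.25 in KO injured minus KO sham and, under the last, to -0.55 in KO injured minus WT injured. Under the first 2 it turned KO injured minus WT injured to 0.23 and 0.13 for Jup, to 0.36 and 0.25 for Cdh2 and to 0.64 and 0.52 for Smad9. It turned Clec14a to -0.12 there under the last, and Adgrl4 to 0.057 in KO injured minus KO sham under the first. The cause was not tested. Signal over background limits Acvrl1, Flt4 and the dim probes of Kdr, Flt1, Pecam1 and Cdh5.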
